A study of Mus musculus with 10 samples.

Results

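The genes described here are 10 genes of the non-collagen extracellular matrix, chosen by name: the adhesive and matricellular glycoproteins Fn1, Postn, Tnc, Thbs1, Thbs2, Sparc and Spp1, the microfibril gene Fbn1, and the small leucine-rich proteoglycans Dcn and Lum. All 10 were found among the 37882 genes of the counts table, and all 10 passed the expression filter that left 14063 genes for testing. They were measured by poly-A RNA-seq in 10 tumours grown in the mammary gland of FVB/N mice from MCa-M3C, a single mouse mammary tumour cell line. Control mice (5 libraries, replicates 1 to 5) received PBS into the retro-orbital vein once a day for 6 days. TMA-ARB mice (5 libraries, replicates 6 to 10) received the same schedule of valsartan in its TMA-ARB form at 40 mg/kg. Valsartan blocks the type 1 angiotensin II receptor, and TMA-ARB is a form of it made to be active mainly inside tumours. Treatment began when tumours were near 100 mm3 in both groups. Whether the 10 libraries come from 10 different mice is not said in the labels, and p-values therefore rest on the variation among libraries, which may be technical.

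Matrix glycoproteins fill the space between cells and tie it together. Fibronectin is assembled by cells into fibrils that other matrix proteins bind, fibrillin-1 builds the microfibrils on which latent TGF-beta is stored, and decorin and lumican coat collagen fibrils. Tenascin-C, periostin, thrombospondins, SPARC and osteopontin (Spp1) are matricellular proteins: they signal through integrins, CD44 or CD47 more than they bear load. In tumours fibroblasts are the usual source of most of them, macrophages and carcinoma cells also make Spp1 and Fn1, and angiotensin II signalling in fibroblasts is known to raise matrix synthesis. In bulk tumour RNA, fewer cells of a type and less RNA per cell cannot be told apart.

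None of the 10 genes passed the test of treatment. EdgeR's quasi-likelihood test called 0 of the 10 at an adjusted p under 0.05, as it called 0% of all 14063 genes, and 0 of the 10 reached an unadjusted p under 0.05, against 3.25% of all genes (1.66% lower and 1.59% higher). DESeq2, which called 0.00837% of its genes, and limma-voom also called 0 of the 10. Of the log2 fold changes, 5 lay below 0 and 5 above, with a median of 0.0077, beside 47.2% of all genes below 0 and a median of 0.021 over all genes. The control and TMA-ARB ranges overlapped for all 10 genes (0 did not overlap), while they did not overlap for 0.526% of all genes tested. The spread between libraries of the same group differed by gene. The biological coefficient of variation in edgeR was smallest for Sparc (24.6%) and largest for Thbs2 (65.7%), Postn (55.3%) and Lum (54.0%). Fn1 (43.3%) also varied several-fold among the treated tumours.

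Libraries held 12742953 to 16884621 counts, of which the 10 genes together made up 0.621% to 1.11%. Genes of the mitochondrial genome took 2.07% to 24.97% of each library's counts, and it was above 5% in 5 libraries (controls 3 and 4, and 8, 9 and 10 of the treated). Of 10 epithelial markers, 6 passed the expression filter. In CPM, counts scaled to a common library size, Krt18 averaged 101 ± 30.4 and 131 ± 51.3 (SD, n = 5; Control, then TMA-ARB), Cdh1 7.04 ± 2.54 and 5.64 ± 4.70, and Epcam 1.96 ± 0.991 and 3.31 ± 4.95. The 10 together summed to 84.5 to 160 CPM in controls and 106 to 240 CPM in treated libraries, and 2 of them (Krt8 and Krt14) lay higher at an unadjusted p under 0.05, beside 1.59% of all genes.

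The genes fell into 2 tiers of abundance. Levels were scaled to the length of each gene's exons, pooled over all its annotated transcripts (17 for Fn1, 1 for Lum). The length of the transcripts expressed was not measured, so the order of genes may depend on this choice of length. On this scale Spp1 came first at 1399 ± 277 CPM per kb in control and 1116 ± 277 in treated libraries (SD, n = 5). It led in all 10 libraries. Sparc followed at 391 ± 48.3 and 369 ± 58.9, then Dcn at 258 ± 80.8 and 335 ± 127, and Fn1 at 221 ± 91.8 and 161 ± 86.2. Sparc exceeded Dcn in 8 of 10 libraries and Dcn exceeded Fn1 in 8, while Sparc exceeded Fn1 in all 10, so only the place of Dcn among these 3 varied between libraries. Below a clear gap, which held in 10 of 10 libraries, came Tnc at 21.9 ± 7.28 CPM per kb in controls, Postn at 17.3 ± 8.67, Thbs1 at 7.33 ± 4.42, Lum at 6.11 ± 1.45, Thbs2 at 2.90 ± 1.098 and Fbn1 at 2.65 ± 0.995. Tnc exceeded Postn in 8 libraries, Postn exceeded Lum in all 10, Lum exceeded Thbs1 in 6, Thbs1 exceeded Thbs2 in 8, and Thbs2 exceeded Fbn1 in 5, so only the step from Postn to Lum was kept by every library in this lower tier. By CPM alone, Fn1 ranked 33 of 14063 genes, Spp1 40, Dcn 54 and Sparc 73.

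**Figure D1:**
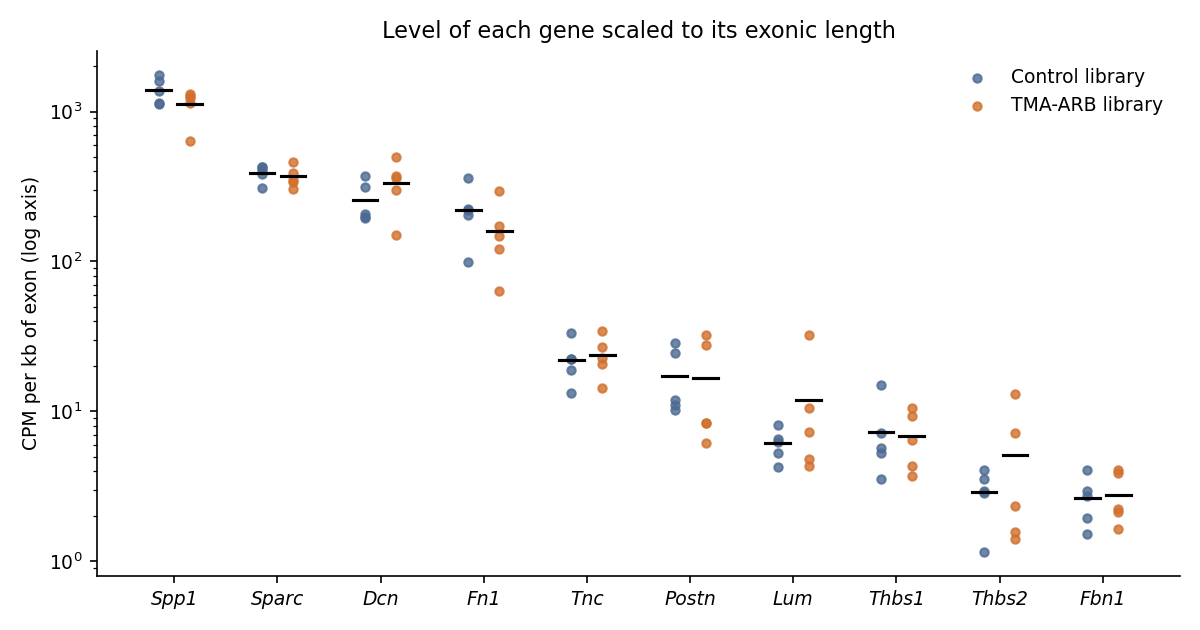
Level of each gene in CPM per kb of exon (log axis) in each control and TMA-ARB library, with a black line at each group's mean (n = 5). Spp1, Sparc, Dcn and Fn1 form an upper tier in every library, above Tnc, Postn, Lum, Thbs1, Thbs2 and Fbn1.

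For 6 of the genes the table of RefSeq promoters (GRCm38.p6) held an entry: Postn, Tnc, Thbs2, Sparc, Spp1 and Fbn1. Fn1, Thbs1, Dcn and Lum are named only. The 250 bases before the start site are shown for Postn, Tnc and Thbs2, whose treatment difference varied most with the mitochondrial share among the genes with an entry, and for Spp1, the most abundant gene. Capitals mark matches, on either strand, to the TATA sequence TATAAA, the CCAAT box, or the GC box GGGCGG.
Postn, chr3:54360857-54361106, plus strand: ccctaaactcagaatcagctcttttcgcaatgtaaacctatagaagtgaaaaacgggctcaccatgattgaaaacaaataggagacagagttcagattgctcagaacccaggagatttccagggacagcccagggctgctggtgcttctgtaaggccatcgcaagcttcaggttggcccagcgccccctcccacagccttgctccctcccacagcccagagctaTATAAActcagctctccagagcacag
Tnc, chr4:64047016-64047265, minus strand: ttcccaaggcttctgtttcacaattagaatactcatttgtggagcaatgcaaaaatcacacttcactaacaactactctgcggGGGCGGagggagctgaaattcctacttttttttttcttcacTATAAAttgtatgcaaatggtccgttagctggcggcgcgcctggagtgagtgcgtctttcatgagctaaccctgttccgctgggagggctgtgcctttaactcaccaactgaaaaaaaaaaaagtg
Thbs2, chr17:14694263-14694512, minus strand: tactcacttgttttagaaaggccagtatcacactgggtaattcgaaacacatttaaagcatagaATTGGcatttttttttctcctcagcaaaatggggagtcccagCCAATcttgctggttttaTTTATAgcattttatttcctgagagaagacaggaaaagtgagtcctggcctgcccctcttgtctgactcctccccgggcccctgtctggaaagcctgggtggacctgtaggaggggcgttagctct
Spp1, chr5:104434861-104435110, plus strand: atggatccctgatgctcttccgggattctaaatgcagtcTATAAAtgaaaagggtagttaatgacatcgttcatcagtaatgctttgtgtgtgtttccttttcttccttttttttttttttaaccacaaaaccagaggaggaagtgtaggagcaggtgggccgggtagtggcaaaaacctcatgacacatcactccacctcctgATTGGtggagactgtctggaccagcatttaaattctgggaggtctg
The windows shown are those that lie before the start of the annotated gene, 1 per gene. Postn, Tnc and Spp1 each had another window in the table, and TATAAA was absent from the other Postn and Spp1 windows and from those of Sparc and Fbn1. The 4 windows shown held TATAAA on one strand or the other, a sequence found in 12.4% of 32851 promoter windows of this length. It began 26 bases before the start site in Postn, 126 in Tnc, 126 in Thbs2 and 211 in Spp1. CCAAT (33.8% of windows) occurred 2 times in Thbs2 and 1 time in Spp1, and GGGCGG (32.7%) 1 time in Tnc. The CRE sequence TGACGTCA (1.55% of windows) and the AP-1 sequence TGANTCA (6.75%) were not among the letters of these 4 windows. A match is a description of the sequence and not a measured binding site.

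Fn1, the fibronectin gene (ENSMUSG00000026193; chromosome 1, 71585520 to 71653200, mm10), was among the most abundant transcripts and the one with the widest absolute spread. The 5 controls, replicates 1 to 5, measured 1166, 4181, 2387, 2628 and 2572 CPM. TMA-ARB replicates 6 to 10 measured 1425, 747, 3469, 1736 and 2023 CPM. Control replicate 2 was highest and TMA-ARB replicate 7 lowest, a 5.60-fold range, and the groups overlapped. The means were 2587 ± 1073 and 1880 ± 1007 CPM (SD, n = 5), with 4 of 5 treated libraries below the control mean. The log2 fold change was -0.46 ± 0.38 (SE; edgeR adjusted p = 0.997), which became -0.22 when control replicate 2 was left out and -0.80 when TMA-ARB replicate 8 was. An antisense gene, Apol7d, overlaps Fn1, and with the strand setting of the counting not given in the sources used here their reads may not be separable. Apol7d held 50 counts in all, against 336534 for Fn1.

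Spp1, which encodes osteopontin, a ligand of CD44 and of integrins (ENSMUSG00000029304; chromosome 5, 104435118 to 104441050), measured 2248, 2906, 1862, 2625 and 1891 CPM in controls. Treated replicates 6 to 10 measured 1050, 2173, 1867, 2015 and 2093 CPM. All 5 treated libraries lay below the control mean, but 4 of them lay within the control range, and only TMA-ARB replicate 6 stood below it. The means were 2306 ± 457 and 1840 ± 456 CPM (SD, n = 5). The log2 fold change was -0.33 ± 0.23 (SE; edgeR adjusted p = 0.997), and it was -0.18 without TMA-ARB replicate 6.

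Sparc, a collagen-binding matricellular gene (ENSMUSG00000018593; chromosome 11, 55394500 to 55423183), was the steadiest of the 10. It measured 1178, 1613, 1543, 1622 and 1456 CPM in controls and 1159, 1738, 1481, 1329 and 1278 CPM under TMA-ARB. TMA-ARB replicate 7 was highest and TMA-ARB replicate 6 lowest, and the groups overlapped. The log2 fold change was -0.086 ± 0.185 (SE; edgeR adjusted p = 0.997). Its biological coefficient of variation in edgeR was 24.6%, below the median of 31.8% over all genes tested.

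Dcn and Lum encode decorin and lumican and are neighbours on chromosome 10, at 97479609 to 97518143 (ENSMUSG00000019929) and 97565128 to 97572703 (ENSMUSG00000036446), with 46984 bases between them. Dcn measured 1146, 1201, 1163, 2169 and 1840 CPM in controls and 871, 2094, 1736, 2912 and 2158 CPM under TMA-ARB. It was highest in TMA-ARB replicate 9, which had the largest mitochondrial share, and lowest in TMA-ARB replicate 6, and 1 of 5 treated libraries lay below the control mean. The means were 1504 ± 472 and 1954 ± 742 CPM (SD, n = 5), a log2 fold change of 0.38 ± 0.30 (SE; edgeR adjusted p = 0.997). Adjusted for the log2 mitochondrial share, it was 0.025 ± 0.250.

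Lum was far scarcer. Controls measured 16.1, 19.97, 15.3, 12.9 and 10.5 CPM, and treated replicates 6 to 10 measured 25.8, 78.9, 11.7, 10.6 and 17.8 CPM. TMA-ARB replicate 7 stood alone, with replicate 6 the next highest, and the other treated libraries lay within the control range. The log2 fold change of 0.95 ± 0.50 (SE; edgeR adjusted p = 0.997, unadjusted p = 0.0805) came down to 0.15 without TMA-ARB replicate 7. DESeq2 gave Lum an unadjusted p of 0.0361 and an adjusted p of 0.995. The log2 ratio of Dcn to Lum counts averaged 6.62 ± 0.73 in control and 6.40 ± 1.44 in treated libraries (SD, n = 5). Among treated libraries it was 5.07 and 4.73 in replicates 6 and 7 and 6.91 to 8.09 in the other 3, so the neighbours did not keep a fixed ratio.

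**Figure D2:**
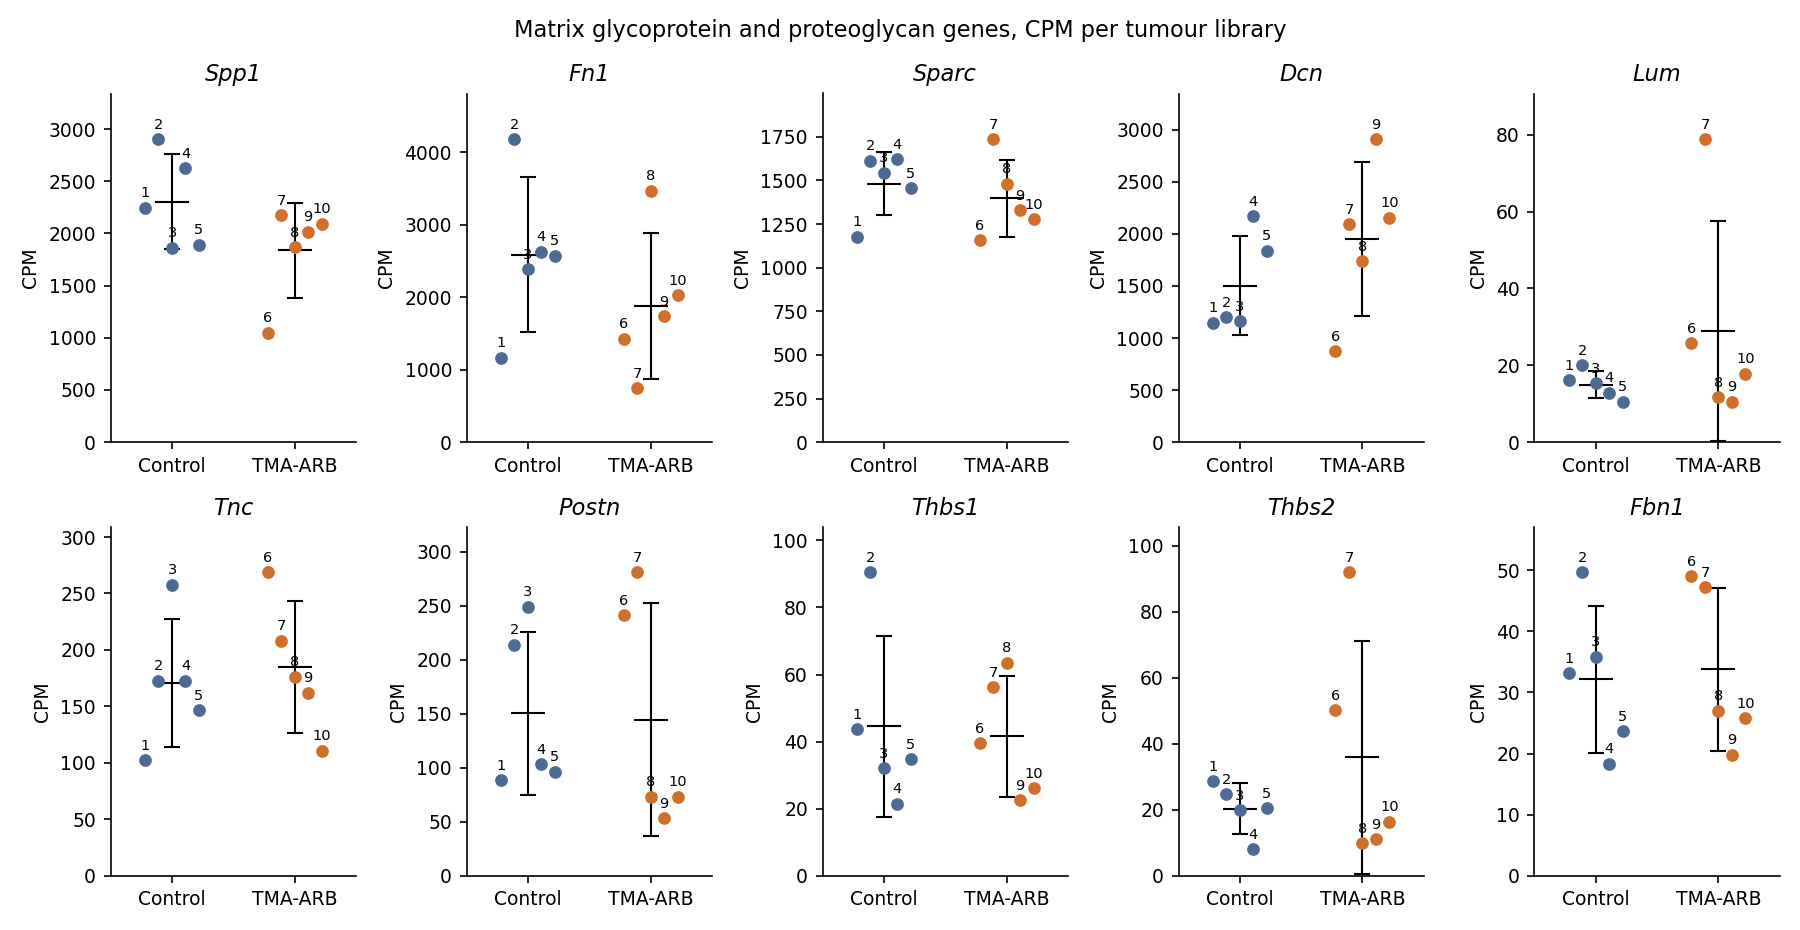
CPM of each gene in each library (points, numbered by replicate) with the group mean and SD (black bars, n = 5 per group). Groups overlap for all 10 genes, and TMA-ARB replicate 7 is the highest library for Postn, Thbs2, Lum and Sparc.

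Postn, the gene of periostin, a matricellular protein that binds collagen and integrins (ENSMUSG00000027750; chromosome 3, 54361109 to 54391037), had nearly equal group means but treated libraries at both ends of its range. Controls measured 88.7, 214, 249, 103 and 96.4 CPM. Treated replicates 6 and 7 measured 242 and 281 CPM, and replicates 8, 9 and 10 measured 73.1, 53.5 and 73.2 CPM. Of the treated libraries 1 lay above and 1 just below the top control, and 3 lay below the lowest control. The means were 150 ± 75.4 and 144 ± 108 CPM (SD, n = 5), and the log2 fold change was -0.057 ± 0.510 (SE; edgeR adjusted p = 0.997).

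Tnc, the tenascin-C gene (ENSMUSG00000028364; chromosome 4, 63959785 to 64047015), measured 102, 173, 258, 173 and 146 CPM in controls and 269, 208, 176, 162 and 111 CPM under TMA-ARB. Control replicate 3 and TMA-ARB replicate 6 were highest, and control replicate 1 and TMA-ARB replicate 10 lowest. The log2 fold change was 0.12 ± 0.26 (SE; edgeR adjusted p = 0.997), and leaving out control replicate 1 or TMA-ARB replicate 6 took it to -0.017 or -0.051. A transcript on the other strand, 8030451A03Rik, overlaps Tnc and held 41 counts in all, against 26605 for Tnc.

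The 2 thrombospondin genes differed in where they were high. Thbs1, whose protein activates latent TGF-beta and binds CD47 (ENSMUSG00000040152; chromosome 2, 118111876 to 118127133), measured 43.7, 90.4, 32.1, 21.5 and 34.8 CPM in controls and 39.4, 56.2, 63.5, 22.6 and 26.1 CPM under TMA-ARB. Control replicate 2 was highest, and the log2 fold change of -0.099 ± 0.385 (SE; edgeR adjusted p = 0.997) became 0.33 without it. Thbs2, which encodes an inhibitor of angiogenesis (ENSMUSG00000023885; chromosome 17, 14665500 to 14694235), measured 28.6, 24.6, 19.9, 8.11 and 20.5 CPM in controls and 50.1, 91.9, 9.90, 11.1 and 16.4 CPM under TMA-ARB. As for Lum and Postn, treated replicates 6 and 7 lay above all controls, except that Postn in replicate 6 lay just under control replicate 3, and Thbs2 in replicates 8, 9 and 10 lay below the control mean. The Thbs2 log2 fold change was 0.82 ± 0.62 (SE; edgeR adjusted p = 0.997), 0.12 without TMA-ARB replicate 7, and its range of 11.3-fold was the widest of the 10 genes.

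Fbn1, the fibrillin-1 gene (ENSMUSG00000027204; chromosome 2, 125300594 to 125507993), measured 33.2, 49.6, 35.8, 18.4 and 23.7 CPM in controls and 49.0, 47.2, 27.0, 19.8 and 25.8 CPM under TMA-ARB. Treated replicates 6 and 7 were again the upper ones of their group. The log2 fold change was 0.073 ± 0.304 (SE; edgeR adjusted p = 0.997). Gm9913, on the other strand, overlaps Fbn1 and held 54 counts against 5052. Over the 10 genes, 7 had a biological coefficient of variation above the median of 31.8% for all genes tested. It was largest for Thbs2 (65.7%), Postn (55.3%) and Lum (54.0%).

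The treatment difference was also computed on each side of a 5% mitochondrial share, and no member passed the test that the sides differ (0 of 10). This line was drawn from the data and is not a group of the study. Under it lay 3 controls and 2 TMA-ARB libraries, above it 2 and 3. Above it the shares of the groups did not overlap. They were 6.37% and 6.63% in controls 3 and 4, and 10.5%, 24.97% and 11.7% in TMA-ARB replicates 8, 9 and 10. Treatment and share therefore cannot be told apart on that side, nor in the difference between the sides. In the libraries under the line, Lum had a log2 fold change of 1.75 ± 0.43, Thbs2 1.53 ± 0.31, Postn 0.97 ± 0.37, Tnc 0.76 ± 0.31 and Fn1 -1.28 ± 0.52 (SE), and these 5 of 10 had an unadjusted edgeR p under 0.05, beside 8.16% of all genes there. In the libraries above it, Postn was at -1.41 ± 0.33, Tnc at -0.53 ± 0.25, Thbs2 at -0.18 ± 0.40, Lum at -0.085 ± 0.327 and Fn1 at -0.062 ± 0.302, and only Postn had an unadjusted p under 0.05, beside 7.24% of all genes. No member passed adjustment on either side (0 of 10 on each).

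The difference between the sides was tested as an interaction over all genes. For Postn it was -2.38 ± 0.56 on the log2 scale (SE; unadjusted p = 0.000888, edgeR adjusted p = 0.221). For Lum it was -1.83 ± 0.57, for Thbs2 -1.70 ± 0.51 and for Tnc -1.29 ± 0.41 (edgeR adjusted p from 0.283 to 0.291). These 4 of 10 had an unadjusted p under 0.05, beside 10.6% of all genes, and 0 of 10 passed adjustment, beside 0.0711% of all genes. Adjusted for the log2 mitochondrial share in all 10 libraries, Thbs2 was at 1.25 ± 0.34 and Lum at 1.27 ± 0.36 (unadjusted p = 0.00299 and 0.00405), and both had an edgeR adjusted p of 0.886. The part of RNA quality or of tissue composition in these differences was not tested.

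**Figure D3:**
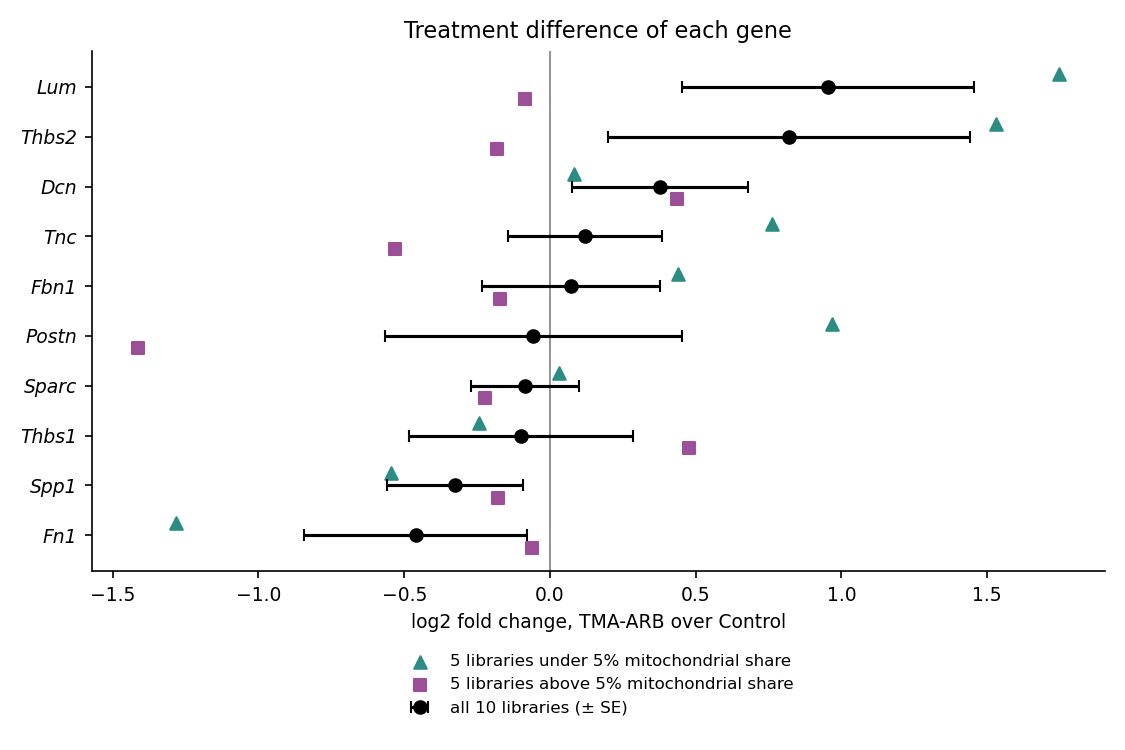
log2 fold change of each gene (TMA-ARB over Control), as black points with SE for all 10 libraries, green triangles for the 5 libraries under a 5% mitochondrial share and purple squares for the 5 above it. Lum, Thbs2, Postn and Tnc lie above 0 under the line and below 0 above it, and the pooled values of all 10 genes missed the test.

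Of the 45 pairs of members, the 5 with the smallest p for r all lay among Postn, Thbs2, Lum and Fbn1, and none passed adjustment. With each group's mean removed from log2 CPM, Thbs2 and Lum had r = 0.87 and rho = 0.82 over 10 libraries (exact permutation p = 0.00549 and 0.0214). Postn and Fbn1 had r = 0.85 and rho = 0.65 (exact permutation p = 0.00806 and 0.0397), and Thbs2 and Fbn1 had r = 0.83 and rho = 0.71 (exact permutation p = 0.00729 and 0.0302). For Postn and Lum r was 0.81 and rho 0.85, and for Fbn1 and Lum r was 0.74 and rho 0.79 (exact permutation p = 0.00681 and 0.00792 for r, 0.0185 and 0.00708 for rho). Over the 45 pairs 0 passed, 9 had an unadjusted p under 0.05, and the adjusted p of these 5 pairs was 0.0725 for r and 0.170 to 0.223 for rho. The share among pairs of other genes was not computed. Without the 2 libraries farthest from the median, r was 0.73 for Thbs2 and Lum, 0.70 for Postn and Fbn1, 0.87 for Thbs2 and Fbn1, 0.55 for Postn and Lum and 0.80 for Fbn1 and Lum. In 4 of the 5 pairs the libraries left out included TMA-ARB replicate 7, and in 3 of the 5 TMA-ARB replicate 6.

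The remaining pair of these genes, Postn and Thbs2, had r = 0.77 and rho = 0.71 (exact permutation p = 0.0531 and 0.0928, adjusted p = 0.239 and 0.380). It rested on TMA-ARB replicates 6 and 7, without which r was 0.20, and in control replicate 1 Postn lay 0.62 below its group mean (log2) while Thbs2 lay 0.60 above it. Thbs2 and Lum had r = 0.95 among the treated libraries and 0.43 among the controls, whereas Fbn1 and Lum had 0.82 and 0.85 (n = 5 in each, so no test is given). With the log2 mitochondrial share also removed, r was 0.72 for Thbs2 and Lum, 0.71 for Postn and Fbn1, 0.63 for Postn and Lum, 0.40 for Thbs2 and Fbn1 and 0.36 for Fbn1 and Lum, as a description. The 2 thrombospondins did not pair closely (r = 0.45, rho = 0.44; exact permutation p = 0.197 and 0.218, adjusted p = 0.484 and 0.479). Without the 2 farthest libraries their r was 0.38.

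Dcn had negative r with these 4 genes, none past adjustment. Dcn and Fbn1 had r = -0.77 and rho = -0.81 (exact permutation p = 0.0132 and 0.0113, adjusted p = 0.0990 and 0.170), and r was -0.73 without the 2 libraries farthest from the median, control replicate 2 and TMA-ARB replicate 6. With its genomic neighbour Lum, Dcn had r = -0.28 and rho = -0.60 (exact permutation p = 0.523 and 0.0851, adjusted p = 0.736 and 0.380). It was -0.092 (r) without TMA-ARB replicates 6 and 9, the 2 libraries farthest from the median of Dcn. With 1 library left out, r ran from -0.81 (without TMA-ARB replicate 7) to -0.066 (without TMA-ARB replicate 9). Among controls r was -0.76 and among treated libraries -0.20. With the log2 mitochondrial share also removed, r was -0.46 for Dcn and Fbn1, -0.20 for Dcn and Postn, 0.46 for Dcn and Lum and 0.25 for Dcn and Thbs2. Fn1 and Thbs2 had r = -0.68 and rho = -0.72 (exact permutation p = 0.0474 and 0.0506, adjusted p = 0.237 and 0.253). Without control replicate 1 and TMA-ARB replicate 7, the farthest libraries, that r was -0.37. Without TMA-ARB replicate 7 alone it was -0.45, and without control replicate 1 alone -0.70. Among treated libraries it was -0.89 and among controls -0.25. Tnc followed Postn, with r = 0.74 and rho = 0.77 (exact permutation p = 0.0159 and 0.00875, adjusted p = 0.102 and 0.170) and r = 0.65 without the 2 farthest.

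**Figure D4:**
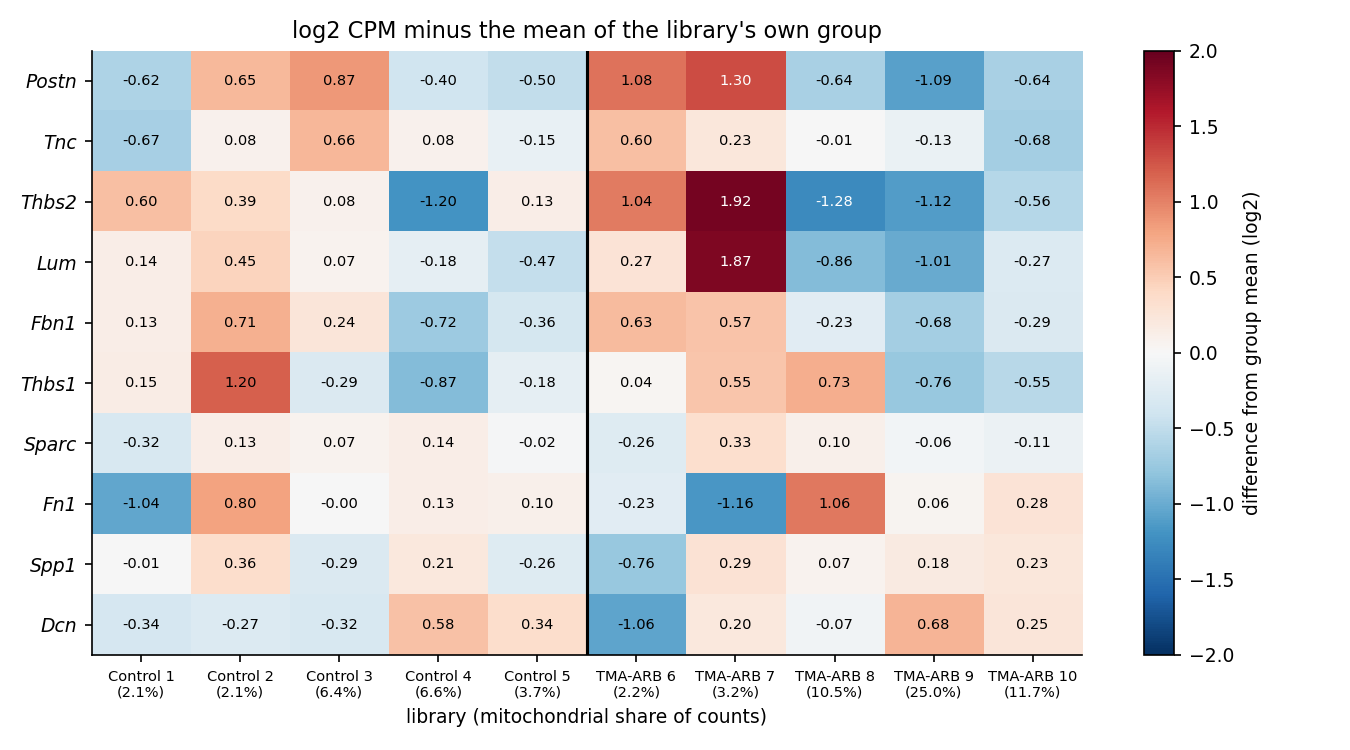
Difference of each library's log2 CPM from the mean of its own group, for each gene (rows) and library (columns, with the mitochondrial share of counts in brackets). Postn, Thbs2, Lum and Fbn1 are above the group mean in TMA-ARB replicates 6 and 7 and below it in replicates 8, 9 and 10, and Dcn is lowest in TMA-ARB replicate 6 at -1.06.

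Of the 60 relations between a member and a marker level or the mitochondrial share, 1 passed adjustment. Fbn1 followed the mural cell markers (pericyte and smooth muscle genes such as Pdgfrb, Acta2 and Kcnj8; 7 of 8 tested), with r = 0.94 and rho = 0.98 over 10 libraries. Both had an exact permutation p of 6.94e-05, the smallest that 14400 arrangements can give, and an adjusted p of 0.00417. Without control replicate 2 and TMA-ARB replicate 6, the farthest libraries, r was 0.91, and with 1 library left out it ran from 0.92 to 0.97. It was 0.91 among controls and 0.99 among treated libraries, and 0.80 with the log2 mitochondrial share removed. With endothelial markers Fbn1 had r = 0.84 and rho = 0.77 (exact permutation p = 0.00931 and 0.0119, adjusted p = 0.0821 and 0.0943), and with macrophage markers r = 0.78 and rho = 0.60 (exact permutation p = 0.00958 and 0.0724, adjusted p = 0.0821 and 0.229). Without TMA-ARB replicates 6 and 7 these r were 0.67 and 0.50. With the log2 mitochondrial share removed they were 0.67 and -0.16. With fibroblast markers r was 0.37 and rho 0.47 (exact permutation p = 0.318 and 0.216, adjusted p = 0.560 and 0.440). Whether these relations differ from one another was not tested, nor how many of all genes follow the mural markers as closely. The mural level is a plain mean of log2 CPM, so scarce markers count in it as much as Acta2. Cspg4 averaged 1.55 and 1.52 CPM and Notch3 1.05 and 1.32 CPM (Control, then TMA-ARB), against 453 and 395 CPM for Acta2. Whether mural cells or fibroblasts supplied the Pdgfrb and Acta2 transcripts was not tested. The relation is therefore with these marker genes, not with a measured number of mural cells.

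No other relation passed, and 15 of the 60 had an unadjusted p under 0.05. The share of all genes with such a p was not computed. Postn with mural markers had r = 0.90 (exact permutation p = 0.00333, adjusted p = 0.0667) and with endothelial markers r = 0.91 (exact permutation p = 0.00569, adjusted p = 0.0821), with rho of 0.73 and 0.87. Lum with endothelial markers had r = 0.83 and rho = 0.92 (exact permutation p = 0.00292 and 0.00333, adjusted p = 0.0667 and 0.0943). Thbs2 with macrophage markers had r = 0.87 and rho = 0.88 (exact permutation p = 0.0138 and 0.0118, adjusted p = 0.0921 and 0.0943), which fell to r = 0.51 without TMA-ARB replicates 6 and 7. Dcn with mural markers had r = -0.77 and rho = -0.85 (exact permutation p = 0.0192 and 0.00722, adjusted p = 0.115 and 0.0943), and r = -0.57 without control replicate 2 and TMA-ARB replicate 6. Postn with mural markers kept r = 0.91 without those 2 libraries, Postn with endothelial markers 0.76 and Lum with endothelial markers 0.88 without TMA-ARB replicates 6 and 7. With the log2 mitochondrial share removed, r was 0.84 for Postn with mural and with endothelial markers, and 0.67 for Lum with endothelial markers. It was 0.33 for Thbs2 with macrophage markers and -0.44 for Dcn with mural markers.

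The mitochondrial share moved with several of these genes. Thbs2 had r = -0.85 and rho = -0.83 with it (exact permutation p = 0.0112 and 0.0126, adjusted p = 0.0839 and 0.0943), Fbn1 r = -0.84 and rho = -0.79 (exact permutation p = 0.00729 and 0.0112, adjusted p = 0.0821 and 0.0943), and Dcn r = 0.71 and rho = 0.66 (exact permutation p = 0.0330 and 0.0536, adjusted p = 0.163 and 0.181). Without TMA-ARB replicates 6 and 9, r was -0.84 for Thbs2, -0.75 for Fbn1 and 0.32 for Dcn, so the Dcn relation rested on those 2 libraries. The share's part in the gene relations was not tested beyond the values above.

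**Figure D5:**
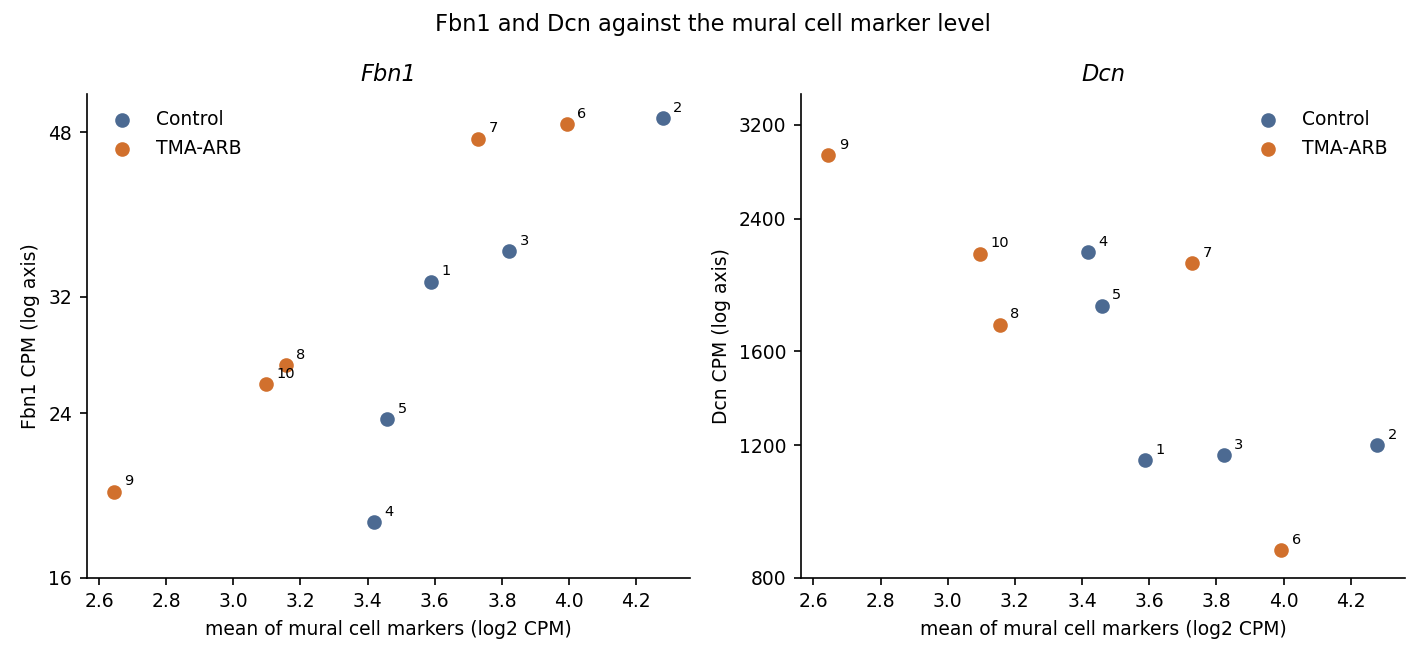
CPM of Fbn1 (left) and Dcn (right) on log axes against the mean log2 CPM of the mural cell markers, 1 point per library, numbered by replicate. Fbn1 is high where mural markers are high (r = 0.94 with group means removed), and Dcn is highest in TMA-ARB replicate 9, where they are lowest.

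Markers of the cells that could supply these transcripts overlapped between groups. The 10 fibroblast markers summed to 517 to 808 CPM in controls and 454 to 691 under TMA-ARB, mostly Pdgfra (375 ± 84.9 and 278 ± 100 CPM), and 1 of them, Tcf21, had 0 counts. The 8 mural markers summed to 380 to 908 and 348 to 856 CPM, of which Acta2 made up 453 ± 161 and 395 ± 190, and 2 of 7 tested (Pdgfrb and Kcnj8) lay lower at an unadjusted p under 0.05, beside 1.66% of all genes. The 9 macrophage markers summed to 861 to 1369 and 320 to 1520 CPM, and the 8 endothelial markers to 263 to 453 and 230 to 335, with 1 of 8 (Plvap) lower at that p. Bone and cartilage markers, listed because Spp1 and Sparc are bone matrix genes, summed to 98.5 to 203 and 62.3 to 271 CPM. Most of this was Sox9 (95.1 ± 27.1 and 115 ± 68.9 CPM) and Runx2 (58.1 ± 19.0 and 54.9 ± 21.7), while Bglap was at 1.14 ± 1.19 and 0.341 ± 0.285 CPM and Sp7 and Acan had 0 counts. Adipocyte and skeletal muscle markers summed to at most 60.1 and 279 CPM, most of it Fabp4 and Acta1. Acta1 was at 123 ± 43.8 and 115 ± 93.4 CPM. Of 3 muscle markers tested, 1 (Mylpf, log2 fold change -2.43 ± 1.05, SE) lay lower at an unadjusted edgeR p under 0.05, beside 1.66% of all genes. Ckm (6.81 ± 10.7 and 0.448 ± 0.457 CPM) and Tnnc2 (6.76 ± 9.64 and 0.179 ± 0.256 CPM) did not pass the expression filter. With the fibroblast marker level as a covariate Lum was at 0.62 ± 0.46, Thbs2 at 0.31 ± 0.59, Postn at -0.36 ± 0.31, Dcn at 0.47 ± 0.29, Fn1 at -0.46 ± 0.40 and Spp1 at -0.32 ± 0.24 (SE). This level is the mean log2 CPM of the markers averaging at least 1 CPM, not their sum. Twist2 (0.801 ± 0.934 and 1.82 ± 1.80 CPM) therefore weighs as much in it as Pdgfra. The levels used in the correlations were means over the markers that passed the expression filter. The part of cell composition in each gene's values was not tested further.

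The genes whose pattern across the 10 libraries was most like each member were ranked by r among 9458 genes with a mean of at least 10 CPM, group means removed, as a description with no test. Fn1 was most like Thbs4, another thrombospondin gene (r = 0.98), then Nr1d1 (0.98) and Ago2 (0.97). Postn was most like Pex19 (0.94), the collagen crosslinker gene Loxl2 (0.93) and Crip2 (0.93). Tnc was most like Fhl1 (0.91), the smooth muscle actin gene Acta2 (0.91) and Prkci (0.88). For Thbs1 the nearest were Hbp1 (0.96), Zfand2a (0.95) and Rtfdc1 (0.95), and for Thbs2 Eif5a (0.97), Prmt7 (0.97) and Api5 (0.97). Fbn1 was nearest to Ccdc80 (0.94), itself a matrix gene, Pde2a (0.94) and Pdk3 (0.94). Sparc was nearest to Naa30 (0.95), Nptn (0.94) and Hibadh (0.94), and Spp1 to Hint3 (0.95), Aga (0.93) and Nppb (0.92). Dcn was nearest to Xrcc4 (0.94), Ociad2 (0.94) and Car5b (0.94), and Lum to Mnat1 (0.98), Trmt11 (0.96) and Arl5a (0.96). No member appeared among the 3 nearest genes of another.

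Other matrix genes were read from 6 lists. Of 72 tested genes 0 passed edgeR at an adjusted p under 0.05, nor did any by DESeq2 (0) or limma-voom (0). At an unadjusted p under 0.05 there were 10, all lower under TMA-ARB, beside 1.66% of all genes that were lower at that p. In all 55 of 72 were below 0, beside 47.2% of all genes, which is also the share to set beside the counts of each list below. Leaving out control replicate 2 left 4 at that p, leaving out control replicate 4 left 5, and leaving out TMA-ARB replicate 7 left 6. Over all genes, in either direction, 457 of 14063 had such a p with all libraries. Without control replicate 2 it was 224 of 14343, without control replicate 4 458 of 14317, and without TMA-ARB replicate 7 620 of 14341. Without control replicate 2, 46 of 73 were below 0, with a median of -0.062 in place of -0.21. In the 5 libraries under a 5% mitochondrial share 16 of 75 had such a p, beside 8.16% of all genes there. Only 8 of the 16 were lower. Control replicate 2 held the highest summed level in 5 of the 6 lists, as it did for Fn1, Spp1, Thbs1 and Fbn1. The lists were written with earlier results of these data known, so their direction is no independent evidence.

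Among elastic fibre and latent TGF-beta binding genes, 0 of 15 passed and 10 lay below 0 (median -0.20). Ltbp3, which tethers latent TGF-beta to microfibrils, averaged 175 ± 30.9 CPM in control and 122 ± 26.4 CPM in treated libraries (SD, n = 5). Its log2 fold change was -0.52 ± 0.20 (SE; edgeR adjusted p = 0.997). Its groups did not overlap, as was so for 0.526% of all genes tested. Ltbp4 had -0.54 ± 0.21, Emilin2 -0.66 ± 0.35 (-0.42 without control replicate 2) and Eln, the elastin gene, 1.46 ± 0.84. Eln was scarce, at 1.26 ± 0.828 CPM in control and 3.45 ± 4.49 CPM in treated libraries (SD, n = 5). Its log2 fold change came down to 0.28 without TMA-ARB replicate 6.

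Of 17 other matricellular genes 0 passed and 15 lay below 0 (median -0.25). Smoc1, a SPARC-related gene, measured 12.7 ± 6.91 and 4.13 ± 2.83 CPM (log2 fold change -1.61 ± 0.47). Sparcl1, the closest relative of Sparc in name, measured 147 ± 31.2 and 99.2 ± 18.8 CPM (-0.57 ± 0.20), where Sparc itself was at -0.086. Mgp, the matrix Gla protein gene, was at -1.19 ± 0.52, and at -0.67 without control replicate 3. Tgfbi, a relative of periostin, was at -0.39 ± 0.20, where Postn was at -0.057.

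Of 7 other small leucine-rich proteoglycans 0 passed and 4 lay below 0 (median -0.63). Prelp measured 9.40 ± 7.40 and 2.64 ± 1.71 CPM (log2 fold change -1.82 ± 0.54, and -1.24 without control replicate 2), Ogn, the osteoglycin gene, was at -0.63 ± 0.33, Ecm2 at -0.79 ± 0.52 (-0.51 without control replicate 3) and Omd at 0.83 ± 0.59. Omd was scarce, at 0.770 ± 0.416 and 1.37 ± 0.506 CPM. Of 5 basement membrane and large proteoglycan genes 0 passed and 5 lay below 0 (median -0.21). Hspg2, the perlecan gene, measured 323 ± 66.7 and 230 ± 53.0 CPM (-0.49 ± 0.22), Nid2 was at -0.25, Nid1 at -0.21 and Agrn at -0.14. Without control replicate 2, Nid2 was -0.068 and Agrn -0.0043, and with 1 library left out Nid1 ran from -0.40 to 0.080, nearest 0 without TMA-ARB replicate 9 (-0.054).

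Of 15 receptor genes 0 passed and 12 lay below 0 (median -0.066), ranging from -0.58 (Itgb3) to 0.76 (Itgb6). Itgb6 was scarce, at 1.21 ± 0.914 CPM in control and 2.07 ± 1.99 CPM in treated libraries (SD, n = 5). Itgb5, a partner of Itgav in binding periostin and osteopontin, measured 149 ± 17.6 and 107 ± 28.6 CPM (log2 fold change -0.48 ± 0.19). Itgb3 was at -0.58 ± 0.35, and at -0.25 without control replicate 2. Itga9 was at -0.29, and at -0.18 without control replicate 2, and Itga5, the fibronectin receptor subunit gene, at -0.27, and at -0.067 without control replicate 2. Among 13 proteases that cut matrix glycoproteins 0 passed and 9 lay below 0 (median -0.24). Adamts1 was at -0.96 ± 0.21, Mmp14 at -0.56 ± 0.25, Mmp2 at -0.80 ± 0.42 and Adamts4 at -0.36 ± 0.30 (SE; edgeR adjusted p = 0.997 for each). The groups did not overlap for Adamts1, as was so for 0.526% of all genes tested. Without control replicate 2, Mmp2 was -0.47 and Adamts4 -0.053.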

How the data were processed

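Estimated counts per gene for the 10 tumours are the values the authors deposited. Salmon and mm10 are named in the submitters' processing notes; the version, annotation and strand setting are not given in the sources used here. Rounding changed 0 values, since they were whole, and column names gave the sample of each column (0 unmatched). The members and gene lists were chosen with earlier results of these data known.

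Counts were fitted with edgeR 4.0.16 (R 4.3.3), using TMM scaling, the default expression filter, robust quasi-likelihood F tests and Benjamini-Hochberg adjustment over 14063 genes at 0.05. SE is the absolute log2 fold change divided by the square root of F. CPM use TMM-scaled library sizes, and log2 CPM a prior count of 2. DESeq2 1.42.0, sample-weighted limma-voom (limma 3.58.1), RLE scaling, other filters, covariates and each library left out were the alternatives. The mitochondrial interaction and the correlations with marker levels were added after the data had been seen. The steps were tested on simulated data.

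Correlations removed group means and permuted values within groups over all 14400 arrangements, two-sided, adjusted over 45 pairs or 60 relations. Exonic lengths and positions came from GENCODE mouse release M21 on the assembly of mm10, which matched 37607 of 37882 genes. Named genes were the 10 members, the 4 genes of smallest p per matrix list with a mean of at least 1 CPM, and the 3 genes most like each member.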

Additional observations from a re-analysis of the deposited data

Results flagged for a closer look

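Of 20 sets of 5 libraries (10 genes in 2 groups), 2 held a library far from its group, where chance flags about 1 in 20. Spp1 in TMA-ARB replicate 6 measured 1050 CPM, below the other treated libraries at 1867 to 2173. Lum in TMA-ARB replicate 7 measured 78.9 CPM, above the others at 10.6 to 25.8, and its log2 fold change of 0.95 was 0.15 without that library.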

How the results depend on the processing

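Over 20 other settings 0 members and 0 genes of the matrix lists passed adjustment, and 0 pairs did under the settings tried for correlations. The number of members at an unadjusted p under 0.05 was 0 at first, beside 457 of all 14063 genes. It was 1 with DESeq2, run without the expression filter, beside 826 of the 23981 genes with any count. After adjustment for the log2 mitochondrial share it was 2, beside 743 of 14063. In the libraries under a 5% share it was 5 and in those above it 1, beside 8.16% and 7.24% of all genes. With 1 library left out it was 0 to 2, beside 224 genes (without control replicate 2) to 1219 genes (without TMA-ARB replicate 6). Of 200 member values 27 changed sign. Limma-voom with sample weights gave Tnc -0.16, Thbs2 -0.075 and Fbn1 -0.030. With the mitochondrial covariate Postn was 0.11 and Thbs1 0.37, and with the fibroblast covariate Fbn1 was -0.045. Under the 5% line Postn was 0.97 and Sparc 0.031. Above it Tnc was -0.53, Thbs1 0.48, Thbs2 -0.18, Fbn1 -0.17 and Lum -0.085. With 1 library left out, Postn ran from -0.43 to 0.20, Thbs1 from -0.30 to 0.33, Tnc from -0.051 to 0.32 and Fbn1 from -0.099 to 0.28, each crossing 0. Fn1, Spp1 and Dcn kept their sign in all 20 settings. The cause was not tested. No paired analysis was possible because the groups share no replicate number.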
